A study of Homo sapiens with 12 samples.

Results

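The genes described here are 8 human genes for sensing double-stranded RNA: DDX58, IFIH1, DHX58, ZBP1, EIF2AK2 and TLR3, the adaptor gene MAVS and the RNA editing gene ADAR. They were chosen by name, as the protein-coding row that carries each name in the deposited count table, and each name had 1 row. They are 8 of 44337 gene intervals used, and all 8 held enough reads to be among the 24868 genes tested. The study asked which genes are deregulated when uc.110, a transcribed ultraconserved region of the genome, is knocked down in A172, an established human glioblastoma cell line.

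RNA sequencing covered 12 libraries of A172 cells with a wild-type genotype, labelled as adherent glioma cells from brain. The scrambled group (4 libraries) received a scrambled control siRNA, the siRNA-1 group (4 libraries) received siRNA-1 against uc.110, and the siRNA-2 group (4 libraries) received siRNA-2 against uc.110. All groups share the transfection: 3 µL of a 20 µM siRNA with 9 µL of Lipofectamine 2000 on day 1, for 6 hours, with RNA taken on day 2. Every library therefore comes from cells that were given a short double-stranded RNA with a cationic lipid, the scrambled group included, and untransfected cells are not analysed here. The model is 1 cell line, and the sequences of the siRNAs were not used here. Whether the 4 libraries of a group were grown as separate cultures is not stated in the labels. The p-values therefore cover only the variation among the libraries at hand, part of which may be technical.

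Cells recognise double-stranded RNA, a by-product of viral replication, with several protein families. The RIG-I-like receptors RIG-I (gene DDX58), MDA5 (IFIH1) and LGP2 (DHX58) are helicases of the cytosol, and RIG-I and MDA5 signal through MAVS, an adaptor on the outer mitochondrial membrane, to the kinases and transcription factors that switch on interferon genes. TLR3 reads double-stranded RNA inside endosomes and signals through the adaptor TICAM1 (TRIF), PKR (EIF2AK2) is a kinase that halts translation by phosphorylating eIF2 alpha, ZBP1 binds nucleic acids in the Z conformation and can trigger cell death, and ADAR (ADAR1) edits adenosine to inosine in double-stranded RNA and thereby keeps the cell's own RNA from being sensed. Many of these genes are themselves targets of interferon signalling, which acts on promoters through the interferon-stimulated response element (ISRE).

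Promoter sequences were available for 6 of the 8 genes in the RefSeq table used (GRCh38.p14, 250 bases before to 50 bases after each start site), where DDX58 is listed as RIGI and ADAR has 3 start sites. DHX58 and ZBP1 had no entry. The ISRE core GAAANNGAAA was searched on both strands. It was found in IFIH1, EIF2AK2 and TLR3, and these letters were not in the windows of DDX58, MAVS or ADAR. Across all promoters in the table the core was present in 3.57% (1255 of 35116). Counted by gene, it was present in 4.38% (1195 of 27305). In IFIH1 it matched 3 times, with the matches starting 159, 153 and 21 bases before the start site, of which the first and second overlap each other. In EIF2AK2 the match starts 6 bases before the start site and in TLR3 it starts 4 bases before it. A match is a stretch of letters and not a measured binding site. As given below, the 3 genes with a match rose with both siRNAs, as did DDX58 and ADAR without one, whereas MAVS fell slightly. Whether a match bears on these changes was not tested. The 3 promoters with a match, and that of MAVS without one, are shown from 180 bases before to 30 bases after the start site. The sequences run 5′ to 3′ on the strand of the gene, with ISRE core matches in capitals. They lie at chr2:162318655-162318864 (minus strand) for IFIH1, chr2:37156951-37157160 (minus strand) for EIF2AK2, chr4:186068976-186069185 (plus strand) for TLR3 and chr20:3846654-3846863 (plus strand) for MAVS.
IFIH1: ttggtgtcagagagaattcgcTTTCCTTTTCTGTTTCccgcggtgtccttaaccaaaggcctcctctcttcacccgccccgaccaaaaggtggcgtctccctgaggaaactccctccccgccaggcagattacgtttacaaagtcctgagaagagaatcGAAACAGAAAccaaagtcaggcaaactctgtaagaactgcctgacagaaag
EIF2AK2: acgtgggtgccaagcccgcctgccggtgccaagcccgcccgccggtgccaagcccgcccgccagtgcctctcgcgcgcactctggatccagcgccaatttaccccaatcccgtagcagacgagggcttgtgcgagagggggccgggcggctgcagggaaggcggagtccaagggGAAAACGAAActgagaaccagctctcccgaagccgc
TLR3: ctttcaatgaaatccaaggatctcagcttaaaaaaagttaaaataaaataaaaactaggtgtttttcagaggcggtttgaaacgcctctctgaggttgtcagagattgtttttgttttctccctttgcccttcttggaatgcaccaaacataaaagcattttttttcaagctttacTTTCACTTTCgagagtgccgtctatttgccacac
MAVS: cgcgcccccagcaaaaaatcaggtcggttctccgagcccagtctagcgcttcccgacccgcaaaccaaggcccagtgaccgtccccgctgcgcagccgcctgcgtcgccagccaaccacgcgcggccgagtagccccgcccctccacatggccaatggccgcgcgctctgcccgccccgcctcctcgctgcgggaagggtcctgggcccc

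In the same 300-base windows, the gamma-activated site TTCNNNGAA was found 2 times in TLR3, starting 178 and 50 bases before the start site. It was found in 7.66% of all promoters and in 9.38% of genes. The NF-kB core GGGANNTTCC was found once each in DDX58 and IFIH1, both 76 bases before the start site. Its shares were 1.61% of all promoters and 1.97% of genes.

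Libraries held 43381815 to 54522123 counts over the gene intervals used. Reads at uc.110 itself were few, with 11 in the scrambled, 5 in the siRNA-1 and 7 in the siRNA-2 libraries together, so this table does not check the knockdown. Ribosomal RNA (45S) took 1.69% to 5.01% of reads in 10 libraries, but 14.3% in replicate 3 of siRNA-1 and 8.35% in replicate 2 of siRNA-2. Scrambled replicate 1 had 1555 intervals with reads in no other library, against 86 to 167 for each of the other libraries. Glioma markers were present (VIM at 2600 CPM and EGFR at 181 CPM in scrambled cells, with CPM meaning counts per 1000000 after scaling for composition), whereas S100B, AQP4, SLC1A3 and FABP7 were at or near 0. Defining T cell, B cell and plasmacytoid dendritic cell markers (CD3E, CD3D, MS4A1, CLEC4C) were at or near 0 in all groups. The summed level of 12 immune markers with an interval was 274 to 304 CPM in scrambled, 255 to 262 CPM in siRNA-1 and 313 to 339 CPM in siRNA-2 libraries, much of it from CSF1R, whose interval overlaps that of HMGXB3. Of the 8 tested immune markers, CD68, CD4 and IL3RA were called higher and CSF1R lower with each siRNA (adjusted p under 0.05). Over all tested genes, 53.5% were called in either direction with siRNA-1 and 56.1% with siRNA-2, so these calls are near the background. CD4 held few reads, 9, 29 and 44 in the scrambled, siRNA-1 and siRNA-2 groups. CD68, a macrophage and lysosome marker, was at 38.0 ± 3.1, 72.7 ± 7.30 and 157 ± 14.6 CPM in the scrambled, siRNA-1 and siRNA-2 groups (SD, n = 4). The part of these markers in the results below was not tested. In bulk RNA a change in the number of cells that express a gene and a change in RNA per cell cannot be told apart.

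Scrambled replicate 1 also stood apart in the genes of interest. It was the highest scrambled library for 7 of the 8 sensor genes, TLR3 being the exception, with a median ratio of 1.46 to the mean of the other scrambled libraries (range 0.987 to 3.34). It was the highest scrambled library for 24 of 24 tested interferon response genes (median ratio 1.94), and for 27.7% of all tested genes (median ratio 0.999). Results are given with this library, and the fold changes of the 7 genes it was highest for are also given without it.

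With both siRNAs, 7 of the 8 genes were higher than with the scrambled siRNA and MAVS was slightly lower. All 8 passed an adjusted p of 0.05 in each comparison (edgeR, Benjamini-Hochberg over all genes tested). The background is large: with siRNA-1, 53.5% of all tested genes passed, 28.6% higher and 24.9% lower, and with siRNA-2, 56.1% passed, 29.9% higher and 26.2% lower. In a fit to protein-coding genes only, 9591 of 15000 passed with siRNA-1 and 10018 with siRNA-2. All siRNA libraries lay above all scrambled libraries for 7 of the 8 genes in each comparison, against 25.2% (siRNA-1) and 27.8% (siRNA-2) of all tested genes. By size, DDX58, IFIH1, DHX58, ZBP1 and TLR3 were at least 2-fold higher, 5 of 8, against 5.11% of tested genes with siRNA-1 and 6.33% with siRNA-2. The median log2 fold change of the 8 genes was 1.53 with siRNA-1 and 1.93 with siRNA-2, and that of all tested genes was 0.01 in both comparisons. Both comparisons use the same 4 scrambled libraries, so they are not independent of each other.

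**Figure D1:**
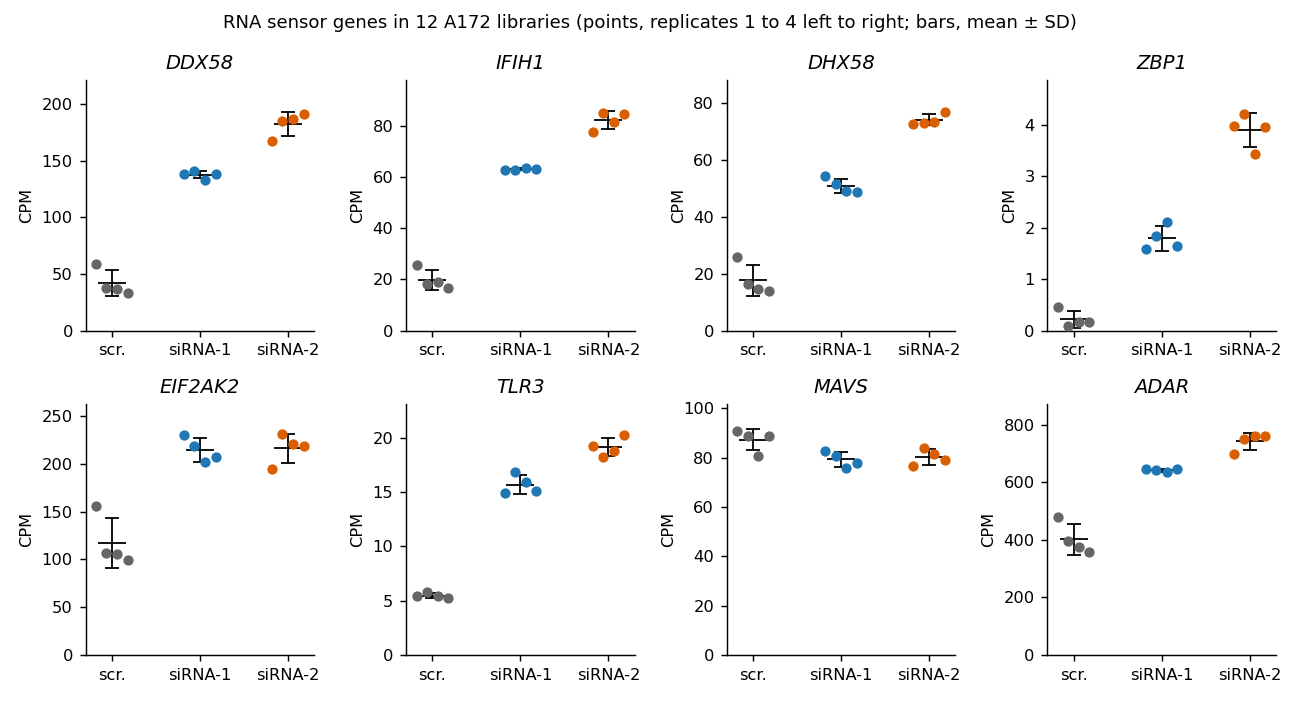
Expression of the 8 sensor genes in each library, in CPM (linear axes from 0). Points are the 4 libraries of each group in replicate order, and bars give the mean ± SD; scr. is the scrambled siRNA. For all genes but MAVS the siRNA libraries lie above the scrambled ones, and in most panels scrambled replicate 1 is the highest grey point.

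The 3 RIG-I-like receptor genes rose together. DDX58 encodes RIG-I, which binds short double-stranded RNA with a 5′ triphosphate or diphosphate. It was at 58.6, 37.4, 37.0 and 33.4 CPM in the scrambled libraries, 138, 141, 133 and 138 CPM with siRNA-1, and 168, 186, 187 and 192 CPM with siRNA-2. The groups did not overlap, and the spread was widest among the scrambled libraries because of replicate 1. Its log2 fold change was 1.73 ± 0.15 (SE, n = 4 against 4) with siRNA-1 (edgeR adjusted p = 6.03e-06) and 2.14 ± 0.16 with siRNA-2 (edgeR adjusted p = 1.03e-06). Without scrambled replicate 1 these became 1.91 and 2.32.

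IFIH1 encodes MDA5, which assembles along long double-stranded RNA, and its promoter carries the 3 ISRE core matches shown above. Its level was 25.4, 18.1, 19.0 and 16.5 CPM in the scrambled libraries, 62.6, 62.9, 63.6 and 63.0 CPM with siRNA-1, and 77.6, 85.0, 81.3 and 84.5 CPM with siRNA-2. The siRNA-1 libraries were almost identical to each other, with an SD of 0.402 CPM, and the 3 groups did not overlap. The mean was 3.19-fold higher with siRNA-1 (edgeR adjusted p = 1.11e-07) and 4.16-fold higher with siRNA-2 (edgeR adjusted p = 1.53e-08). Without scrambled replicate 1 the log2 fold change went from 1.67 to 1.79 with siRNA-1 and from 2.06 to 2.17 with siRNA-2.

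DHX58 encodes LGP2, which lacks the signalling domains of the other two receptors and modulates them. It measured 25.9, 16.3, 14.4 and 14.1 CPM in the scrambled libraries, 54.2, 51.5, 48.9 and 48.7 CPM with siRNA-1, and 72.6, 73.1, 73.4 and 76.9 CPM with siRNA-2. Again no libraries overlapped between groups. The log2 fold change was 1.53 ± 0.17 with siRNA-1 (edgeR adjusted p = 3.05e-05) and 2.07 ± 0.17 with siRNA-2 (edgeR adjusted p = 2.45e-06). Without scrambled replicate 1 the values were 1.74 and 2.29.

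Ratios of counts within a library compare how far the genes moved. The ratio of DDX58 to IFIH1 counts was 2.09 ± 0.155 (SD, n = 4) in scrambled, 2.19 ± 0.064 in siRNA-1 and 2.23 ± 0.0659 in siRNA-2 libraries, and the ranges of all 3 groups overlapped. The ratio of DHX58 to DDX58 counts was 0.422 ± 0.0224 in scrambled, 0.369 ± 0.0166 in siRNA-1 and 0.405 ± 0.0192 in siRNA-2 libraries, and only the siRNA groups did not overlap each other. By contrast, the ratio of DDX58 to MAVS counts was 0.475 ± 0.119 in scrambled, 1.74 ± 0.0451 in siRNA-1 and 2.28 ± 0.108 in siRNA-2 libraries, with no overlap between any groups. The ratio of IFIH1 to MAVS counts went from 0.226 ± 0.0416 to 0.795 ± 0.0356 and 1.02 ± 0.0322, also without overlap. These ratios do not depend on how libraries are scaled, and as ratios of raw counts they do not compare the 2 genes' levels. The DDX58 counts include any reads shared with the overlapping gene ACO1, described below.

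**Figure D2:**
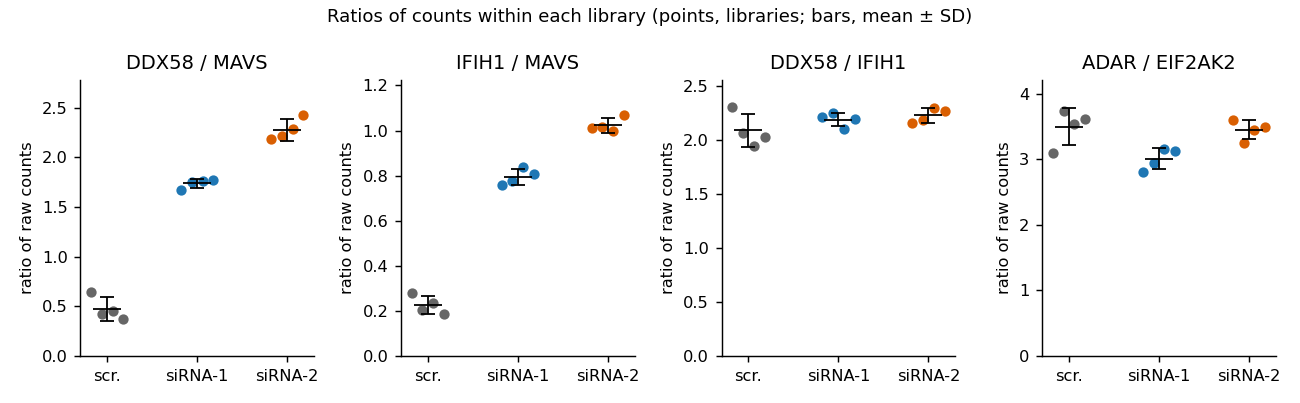
Ratios of raw counts between pairs of sensor genes within each library (linear axes from 0). Points are libraries in replicate order and bars give the mean ± SD. The ratios of DDX58 and of IFIH1 to MAVS separate all groups, the ratio of DDX58 to IFIH1 lies near 2.09 to 2.23 in every group, and the ratio of ADAR to EIF2AK2 differs without overlap only between the siRNA groups.

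MAVS, the shared adaptor of RIG-I and MDA5, was the single sensor gene that fell, and only slightly. It was at 90.7, 88.7, 80.9 and 88.9 CPM in the scrambled libraries, 82.7, 80.8, 75.8 and 78.0 CPM with siRNA-1, and 76.7, 83.8, 81.6 and 79.0 CPM with siRNA-2. The groups overlapped through scrambled replicate 3, which was below 1 siRNA-1 and 2 siRNA-2 libraries. The change was -0.14 ± 0.04 on the log2 scale with siRNA-1 (edgeR adjusted p = 0.00723, 95% interval -0.22 to -0.05) and -0.12 ± 0.04 with siRNA-2 (edgeR adjusted p = 0.0163, 95% interval -0.21 to -0.03). Without scrambled replicate 1 the changes were -0.15 and -0.13. Without siRNA-2 replicate 4 the second change was -0.11 with an edgeR adjusted p of 0.0504.

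TLR3, the endosomal receptor, rose from a low level, and its log2 fold changes had the smallest SE among the 7 genes that rose. It was at 5.41, 5.76, 5.42 and 5.27 CPM in the scrambled libraries, 14.9, 16.9, 15.9 and 15.1 CPM with siRNA-1, and 19.3, 18.3, 18.8 and 20.3 CPM with siRNA-2. No groups overlapped, and here scrambled replicate 1 lay among the other scrambled libraries. The log2 fold change was 1.52 ± 0.06 with siRNA-1 (edgeR adjusted p = 6.56e-16) and 1.81 ± 0.06 with siRNA-2 (edgeR adjusted p = 2.41e-17).

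ZBP1 was the least expressed sensor gene and had the largest fold changes of the 8. The scrambled libraries held 21, 4, 8 and 8 reads, the siRNA-1 libraries 73, 89, 92 and 79, and the siRNA-2 libraries 174, 228, 178 and 207. Replicate 1 held more reads than any other scrambled library, and no groups overlapped. In CPM the means were 0.218 ± 0.166 (SD, n = 4), 1.80 ± 0.240 and 3.90 ± 0.332. The fitted log2 fold change was 3.04 ± 0.27 with siRNA-1 (edgeR adjusted p = 2.44e-09) and 4.16 ± 0.25 with siRNA-2 (edgeR adjusted p = 4.68e-12). At these counts the size rests on few scrambled reads: without scrambled replicate 1 the values were 3.65 and 4.77.

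EIF2AK2, the gene of the translation-blocking kinase PKR, rose with both siRNAs. It was at 156, 106, 106 and 99.2 CPM in the scrambled libraries, 230, 218, 202 and 207 CPM with siRNA-1, and 195, 231, 221 and 218 CPM with siRNA-2. Both siRNA groups lay above the scrambled group and overlapped each other. The log2 fold change was 0.88 ± 0.13 with siRNA-1 (edgeR adjusted p = 0.000329) and 0.89 ± 0.13 with siRNA-2 (edgeR adjusted p = 0.000266). Without scrambled replicate 1 it was 1.02 and 1.03.

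ADAR, the editing enzyme, was the most expressed of the 8. It was at 480, 397, 374 and 359 CPM in the scrambled libraries, 646, 642, 636 and 648 CPM with siRNA-1, and 700, 751, 761 and 761 CPM with siRNA-2. The 3 groups were separate, and even the highest scrambled library lay well below the lowest siRNA library. The log2 fold change was 0.68 ± 0.07 with siRNA-1 (edgeR adjusted p = 2.75e-06) and 0.88 ± 0.07 with siRNA-2 (edgeR adjusted p = 1.53e-07), and 0.74 and 0.95 without scrambled replicate 1. ADAR makes a constitutive and an interferon-induced protein isoform from different start sites, and counts over the whole gene do not separate them.

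The direct comparison of siRNA-2 with siRNA-1 asks whether 2 siRNAs labelled with the same target gave the same sensor levels. In it, 5 of the 8 genes were higher with siRNA-2 and none was lower, while 32.6% of all tested genes passed (15.8% higher, 16.8% lower). In a fit to protein-coding genes only, 6400 of 15000 passed. All siRNA-2 libraries lay above all siRNA-1 libraries for 6 of the 8 genes, against 15.7% of tested genes. The largest difference was that of ZBP1, with a log2 fold change of 1.12 ± 0.19 (edgeR adjusted p = 9.05e-05), the only one of at least 2-fold, which 1.46% of tested genes reached. DHX58 was higher by 0.54 ± 0.16 (edgeR adjusted p = 0.0253), IFIH1 by 0.38 ± 0.10 (edgeR adjusted p = 0.0122), TLR3 by 0.29 ± 0.06 (edgeR adjusted p = 0.00041) and ADAR by 0.21 ± 0.07 (edgeR adjusted p = 0.0385). With all groups in the fit, the calls of ADAR and DHX58 depended on single libraries. ADAR's adjusted p (edgeR) reached 0.0928 with a library left out and DHX58's reached 0.0631. Without scrambled replicate 1 they were 6.52e-05 and 1.45e-09 (edgeR). With only the siRNA groups fitted, they were 5.74e-05 and 1.98e-09 (edgeR).

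The other 3 genes did not pass between the siRNAs. DDX58 differed by 0.41 ± 0.15 with no overlap of libraries and an edgeR adjusted p of 0.0611, which fell to 3.29e-08 without scrambled replicate 1, a library that enters this comparison only through the shared fit. EIF2AK2 differed by 0.01 ± 0.13, with a 95% interval of -0.29 to 0.31 on the log2 scale (edgeR adjusted p = 0.963). MAVS differed by 0.02 ± 0.04, with an interval of -0.07 to 0.10 (edgeR adjusted p = 0.801). The 95% interval of EIF2AK2 includes the ADAR difference of 0.21, and whether both genes moved by different amounts was not tested. Both may also share reads with a neighbour, CHRNB2 for ADAR and GPATCH11 for EIF2AK2, described below. The ratio of ADAR to EIF2AK2 counts was 3.50 ± 0.284 (SD, n = 4) in scrambled, 3.01 ± 0.163 in siRNA-1 and 3.45 ± 0.145 in siRNA-2 libraries. That ratio did not overlap between siRNA-1 and siRNA-2, and overlapped in both comparisons with scrambled.

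**Figure D3:**
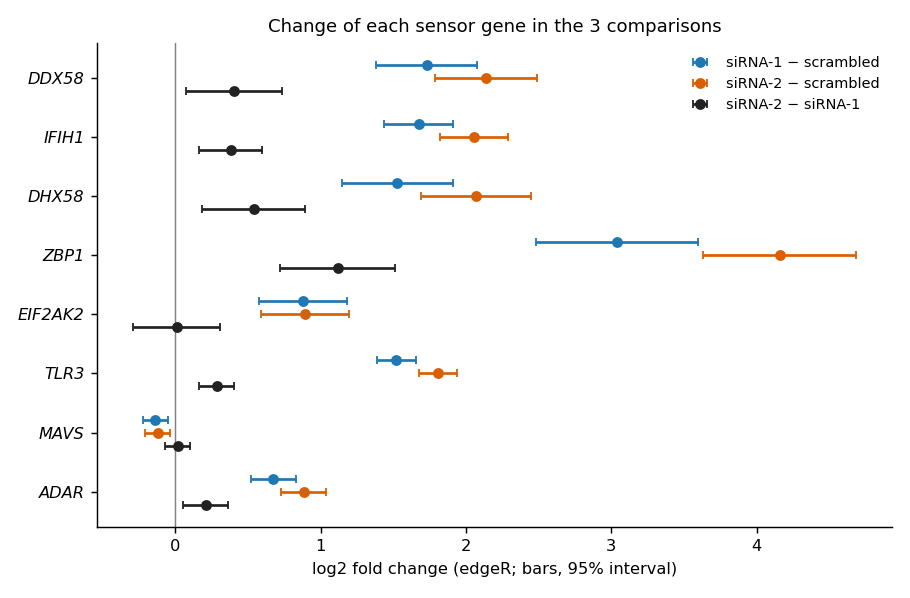
Log2 fold change of each sensor gene in the 3 comparisons, as fitted by edgeR, with 95% intervals as bars. Changes against the scrambled siRNA lie right of 0 for every gene but MAVS, run from 0.68 (ADAR with siRNA-1) to 4.16 (ZBP1 with siRNA-2) among the genes that rose, and between the siRNAs the intervals of EIF2AK2 and MAVS include 0.

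Per kilobase of exon, the order of the levels changed with the siRNAs. Lengths are those of the union of all annotated exons of a gene, while counts cover the whole interval. For some genes, such as TLR3 and DDX58, the interval reaches beyond the annotated gene, so the order of close neighbours is approximate. In scrambled cells ADAR was highest at 41.5 ± 5.57 CPM per kb (SD, n = 4), followed by EIF2AK2 at 10.9 ± 2.43, DDX58 at 9.56 ± 2.64 and MAVS at 7.42 ± 0.372. The ranges of EIF2AK2 and DDX58, and of DDX58 and MAVS, overlapped. DHX58 at 4.59 ± 1.44 and IFIH1 at 3.87 ± 0.770 CPM per kb also overlapped, and TLR3 at 0.813 ± 0.0308 and ZBP1 at 0.0404 ± 0.0306 were apart from all others. MAVS therefore stood above DHX58, IFIH1, TLR3 and ZBP1 with the scrambled siRNA. With siRNA-1 it stood at 6.74 ± 0.258 CPM per kb, below DDX58 (31.7 ± 0.760), EIF2AK2 (19.9 ± 1.17), DHX58 (13.2 ± 0.669) and IFIH1 (12.3 ± 0.0788). All neighbours were apart in that group. With siRNA-2 the order was the same, ADAR at 76.7 ± 3.00 and DDX58 at 42.0 ± 2.43 CPM per kb leading, and only EIF2AK2 (20.1 ± 1.43) and DHX58 (19.3 ± 0.506) overlapped. The place of EIF2AK2 in this order rests on reads that its interval may share with GPATCH11, described next. With all GPATCH11 reads taken away, EIF2AK2 was at 2.26 ± 0.832, 5.39 ± 0.281 and 5.69 ± 0.738 CPM per kb in the scrambled, siRNA-1 and siRNA-2 groups, below MAVS in all 3. ADAR less all CHRNB2 reads was at 25.8 ± 3.68, 41.3 ± 0.614 and 48.7 ± 2.49 CPM per kb and stayed first. DDX58 may share reads with ACO1. Taking all ACO1 reads away left a mean below 0 in the scrambled group (-23.2 CPM), so the place of DDX58 there is uncertain.

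The deposited intervals span whole genes, and the strand setting of the counts is not known. Overlapping intervals may therefore share reads on either strand, so neighbours were checked. In the coordinates of the files (hg38), DHX58 (chromosome 17, 42101352 to 42112733), ZBP1 (chromosome 20, 57603574 to 57620576), TLR3 (chromosome 4, 186058967 to 186089403) and MAVS (chromosome 20, 3846799 to 3876123) overlap no other interval used. ADAR (chromosome 1, 154581655 to 154628016) shares 3053 bases with CHRNB2, a nicotinic acetylcholine receptor subunit gene, whose reads amount to 35.3% to 39.3% of those of ADAR. CHRNB2 itself rose by 0.67 with siRNA-1 and 0.83 with siRNA-2 on the log2 scale, in the same direction as ADAR. With all CHRNB2 reads taken away, ADAR was still 1.60-fold higher with siRNA-1 and 1.89-fold higher with siRNA-2. EIF2AK2 (chromosome 2, 37099209 to 37157583) shares 8490 bases with GPATCH11, whose reads amount to 70.1% to 81.9% of those of EIF2AK2. GPATCH11 itself rose by 0.76 with siRNA-1 and 0.75 with siRNA-2 on the log2 scale, in the same direction as EIF2AK2. Which gene the shared reads come from was not tested. Taking all GPATCH11 reads away left 24.3 ± 8.95 CPM in scrambled, 57.9 ± 3.02 CPM in siRNA-1 and 61.2 ± 7.94 CPM in siRNA-2 libraries. The siRNA groups were then 2.39-fold and 2.52-fold higher.

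DDX58 (chromosome 9, 32450771 to 32526324) shares 3998 bases with ACO1, the gene of a cytosolic aconitase, which fell by 0.74 with siRNA-1 and by 1.18 with siRNA-2 on the log2 scale, opposite to DDX58. Relative to DDX58, ACO1 held between 97.8% and 197% of its reads in scrambled libraries, between 27.0% and 30.1% in siRNA-1 libraries and between 14.3% and 16.4% in siRNA-2 libraries. Taking all of them away leaves a mean below 0 in the scrambled group (-23.2 CPM), so ACO1 holds reads outside the shared stretch and no fold can be given this way. What is left with the siRNAs is 99.2 ± 3.99 CPM for siRNA-1 and 154 ± 10.2 CPM for siRNA-2 (SD, n = 4). A smaller interval that covers 3329 bases of that stretch held 17 to 82 reads per library, 0.186% to 5.13% of those of DDX58. IFIH1 (chromosome 2, 162264486 to 162318708) contains an unnamed CHESS gene model with 9 to 148 reads, 1.05% to 3.22% of those of IFIH1.

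For each sensor gene, the 2 protein-coding genes with the most similar pattern were taken by Pearson's r of log2(CPM + 0.5) over the 12 libraries, in which the group difference dominates. They were PARP12 (0.9987) and MX2 for DDX58, PARP12 (0.9988) and OASL for IFIH1, SP100 and IFIT3 for DHX58, TRIM21 and R3HDM2 for ZBP1, IFI44 and DDX60L for EIF2AK2, SECTM1 and ITGA1 for TLR3, and MX2 and DDX58 for ADAR. For MAVS they were ZCCHC18 (0.947) and MSTO1 (0.937). Of these, MX2, OASL, IFIT3 and IFI44 are on the list of interferon response genes below.

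The genes around the sensors were described by lists, with values given as log2 fold changes, first with siRNA-1 and then with siRNA-2. Over all tested genes, 28.6% rose and 24.9% fell with siRNA-1 and 29.9% rose and 26.2% fell with siRNA-2, and the counts below are to be read against these shares. Fitted alone, protein-coding genes passed more often: 4703 of 15000 rose and 4888 fell with siRNA-1, and 4959 rose and 5059 fell with siRNA-2. Among 19 tested cofactors and regulators of RIG-I-like receptors, 11 rose and 5 fell with siRNA-1, and 12 rose and 4 fell with siRNA-2, with medians of 0.25 and 0.21. Those that fell were MEX3C, CYLD, PCBP2 and MFN2 with both siRNAs and PRKRA with siRNA-1. NLRC5, a NOD-like receptor family member, rose by 0.98 and 1.38. ZCCHC3, a coreceptor that helps RIG-I and MDA5 bind RNA, rose by 0.95 and 0.90. USP15, a deubiquitinase of the RIG-I pathway, rose by 1.16 and 1.22, and the kinase gene DAPK1 rose by 0.77 and 0.67. All 4 passed in both comparisons (edgeR adjusted p from 1.07e-16 to 1.40e-11).

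Below the sensors, changes were smaller and went both ways. Among 19 tested adaptors, kinases and transcription factors, 9 rose and 6 fell with siRNA-1, and 10 rose and 4 fell with siRNA-2, with medians of 0.07 and 0.17. The numbers that fell lie near or below the shares over all tested genes (24.9% and 26.2%). The 4 that fell with siRNA-2 were TRAF3, TRAF6, TANK and CHUK. TICAM1, the adaptor of TLR3, rose by 0.55 and 0.80 on the log2 scale. TRADD, an adaptor of the MAVS complex, rose by 0.14 and 0.46. TRAF3, a ubiquitin ligase between MAVS and the interferon kinases, fell by 0.30 and 0.38. IRF3, the transcription factor at the end of that route, rose by 0.57 and 0.59, and its interval overlaps that of BCL2L12. IRF7 has no usable interval and was not analysed here.

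Around TLR3, among 9 tested genes of its trafficking, processing and related receptors, 5 rose and 1 fell with siRNA-1, and 6 rose and 1 fell with siRNA-2, with medians of 0.24 and 0.27. CD14 fell with siRNA-1 and CNPY3 with siRNA-2. UNC93B1, the chaperone that carries nucleic acid-sensing Toll-like receptors to endosomes, rose from 33.4 ± 2.98 CPM (SD, n = 4) to 78.9 ± 6.63 and 101 ± 1.51 CPM, log2 fold changes of 1.24 ± 0.06 and 1.60 ± 0.06 (edgeR adjusted p = 1.64e-12 and 3.47e-14). The endosomal proteases that process these receptors also rose, CTSL by 0.72 and 0.89 and LGMN by 1.04 and 1.12. MYD88, the adaptor of the Toll-like receptors other than TLR3, rose by 0.76 and 1.02, and its interval overlaps that of ACAA1. The fifth gene that rose with both siRNAs was HSP90B1, and CTSB rose with siRNA-2. TLR7, TLR8 and TLR9 had too few reads to test.

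Among 13 tested genes of the PKR pathway and eIF2 alpha kinases, 4 rose and 6 fell with siRNA-1, and 3 rose and 5 fell with siRNA-2, with medians of 0.00 and -0.08. Over all tested genes 28.6% and 29.9% rose, so the numbers that rose are near the background. The genes that rose were DDIT3 and ATF3 with both siRNAs, PPP1R15B and NCK1 with siRNA-1, and PPP1R15A with siRNA-2. The 5 that fell with siRNA-2 were EIF2AK1, EIF2AK3, EIF2AK4, EIF2S1 and DNAJC3. EIF2AK4, the gene of the eIF2 alpha kinase GCN2, fell by 0.43 and 0.44. DNAJC3, which encodes the PKR inhibitor p58IPK, fell by 0.39 and 0.53. The stress transcription factor ATF3 was at 3.44 ± 0.346, 4.77 ± 1.05 and 9.28 ± 2.14 CPM in the 3 groups (SD, n = 4) and rose by 0.47 and 1.43. DDIT3, a further stress transcription factor, rose by 0.14 and 0.40, and its interval overlaps that of MARS1.

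Among 7 tested cell death partners of ZBP1, 5 rose and none fell with siRNA-1, and 6 rose and 1 fell with siRNA-2, with medians of 0.15 and 0.41, where 53.5% and 56.1% of all tested genes passed in either direction. RIPK1, a kinase with the same interaction motif as ZBP1, rose by 0.15 and 0.54, and the difference between the siRNAs passed (log2 fold change 0.39 ± 0.04, edgeR adjusted p = 2.05e-08). CASP8 rose by 0.42 and 0.44, its regulator CFLAR by 0.34 and 0.41, and CASP1 by 1.22 and 1.60. FADD, which is also on the adaptor list, rose with both siRNAs, MLKL rose with siRNA-2 and CASP6 fell with siRNA-2. The intervals of RIPK1, CASP8 and CFLAR overlap other gene models, that of CASP8 the gene FLACC1. RIPK3, the kinase that ZBP1 engages in necroptosis, has no usable interval and was not analysed here.

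Among 24 tested interferon response genes, 23 rose and none fell with siRNA-1, and 24 rose with siRNA-2. The gene that did not pass with siRNA-1 was IFI35, whose interval overlaps that of VAT1. The medians were 2.09 and 2.67, larger than those of the sensor genes. ISG20, an exonuclease gene, rose by 2.48 and 2.95, IFIT2 by 1.46 and 2.52, and MX1 by 0.87 and 1.15. Between the siRNAs, 8 of the 24 were higher with siRNA-2 and none was lower. Over all tested genes, 15.8% were higher and 16.8% lower in that comparison. Without scrambled replicate 1 the medians of the list were 2.48 and 3.01, with 23 and 24 of its genes called higher. In that fit, 18 of the 24 were higher with siRNA-2 than with siRNA-1. Over all 25209 genes tested there, 4153 were higher with siRNA-2 than with siRNA-1 and 4135 lower.

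The interferon genes themselves were close to the limit of detection, and none of the 9 on the list passed the read filter of the main fit. IFNB1 held 2 reads in the 4 scrambled libraries together, 12 with siRNA-1 and 19 with siRNA-2. IFNL1 held 0, 17 and 17 reads, and IFNL3 held 1, 12 and 7. A sum of 0 allows up to 3 reads, counting error only. IFNA1, IFNA2 and IFNG held no read in any library.

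**Figure D4:**
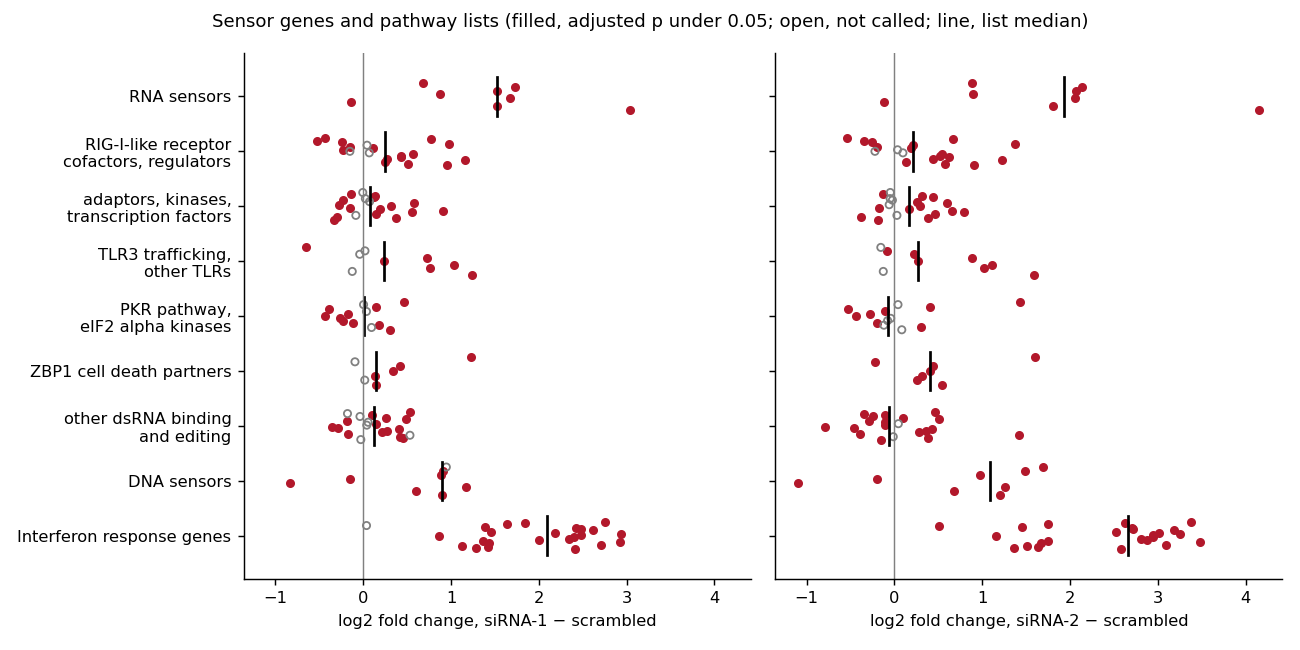
Log2 fold changes of the 8 sensor genes and of the genes on 8 pathway lists, with siRNA-1 (left) and siRNA-2 (right) against the scrambled siRNA. Filled points passed an adjusted p of 0.05 and open points did not; the vertical line is the median of each list. The medians of the sensor genes (1.53 and 1.93) and interferon response genes (2.09 and 2.67) lie to the right of those of the adaptor, PKR and ZBP1 partner lists.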

How the data were processed

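Raw whole-number counts of reads per gene interval were taken as deposited, in 1 table for all 12 libraries (49731 rows, hg38). The submitters' processing notes name Salmon and hg38, and no source used here names the tool that counted the intervals or its strand setting. Of the rows, 44337 gene intervals were used (19144 protein-coding). Left out were 962 ultraconserved or random regions, 1998 intervals that extend past their namesake gene by over 100 kb, 1196 with the same counts as a shorter overlapping interval, 1083 under an older gene name, 69 unmatched ones over 1 Mb, 30 of ribosomal RNA, 28 with a number for a name, 19 copies on chromosome Y and 9 longer rows of a name.

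Tests used edgeR 4.0.16 in R 4.3.3. After filterByExpr (10 counts per library, 15 in total) and TMM scaling, a robust quasi-likelihood model with group alone was fitted to the 12 libraries, and two-sided p-values were adjusted by Benjamini-Hochberg over 24868 genes, with 0.05 as the threshold. The SE of a log2 fold change is its size over the root of the F statistic, and 95% intervals use the fit's degrees of freedom. CPM uses TMM-scaled totals, and exon lengths are the union of all exons of a gene in GENCODE 29 (GRCh38). Alternatives were the DESeq2 factors, DESeq2 1.42.0, no filter or a filter of 1 CPM in 4 libraries, only the groups compared, protein-coding genes only, a replicate block and each library left out; leaving out 3 libraries together (scrambled replicate 1, siRNA-1 replicate 3 and siRNA-2 replicate 2) was added after seeing the data, as were the interferon list without scrambled replicate 1 and levels less overlapping reads.

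The sensor genes and all lists were chosen with earlier results of these data known. Named are the 8 sensor genes, overlapping genes, the 2 most similar genes each, and up to 4 genes per list by p with siRNA-2, of which a part is given; other genes named, to spell out small counts or for lacking reads or an interval, and the interferon genes were chosen after their values were seen. Python 3.11.15 with numpy 2.4.6, pandas 2.3.3 and, for figures, matplotlib 3.10.9 made the rest.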

Additional observations from a re-analysis of the deposited data

Results flagged for a closer look

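In the 24 sets of 4 libraries (8 genes in 3 groups), 3 had a single library far from the other 3, by Dixon's 95% criterion on the gap relative to the group's range; chance alone sets apart about 1 in 20 such groups. DDX58 in scrambled replicate 1 was the highest of its group at 58.6 CPM, with a gap of 0.842 of the range. EIF2AK2 in the same library was the highest at 155.5 CPM, with a gap of 0.874. ADAR in siRNA-2 replicate 1 was the lowest of its group at 700.2 CPM, with a gap of 0.833. The cause was not tested.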

How the results depend on the processing

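Under 20 alternatives each, 319 of 320 values of the 8 genes against the scrambled siRNA kept their direction and their side of 0.05; the exception is MAVS with siRNA-2 without siRNA-2 replicate 4 (-0.11, edgeR adjusted p = 0.0504). Between the siRNAs, 135 of 160 did. The count of sensor genes called there, 5, ran from 3 to 6 with a library left out, and was 3 without siRNA-1 replicate 4 or siRNA-2 replicate 2, 3 or 4. DDX58, at 0.0611, passed there in 7 settings: with DESeq2 (adjusted p = 0.0380) and, by edgeR adjusted p, with a filter of 1 CPM (0.0440), protein-coding genes only (0.0384), only the groups compared (5.42e-08), without scrambled replicate 1 (3.29e-08) or 4 (0.0476), and without 3 libraries together (6.12e-06). With a library left out, the difference of EIF2AK2 ran from -0.02173 to 0.0598 and that of MAVS from -0.004051 to 0.0393, changing sign: EIF2AK2 to -0.007023 without siRNA-1 replicate 3, -0.005318 without siRNA-1 replicate 4, -0.02173 without siRNA-2 replicate 2 and -0.04089 without 3 libraries together, and MAVS to -0.004051 without siRNA-2 replicate 2 and -0.01655 without the 3 libraries. The causes were not tested. The longest row in place of the shortest gave no other value, since each gene has 1 row. Replicate numbers did not pair the samples: deviations of same-numbered libraries correlated at -0.0858 to 0.0532 in 12 pairs, and 0 libraries were closest to their own number. With the replicate block, 8, 8 and 4 sensor genes and 13202, 13902 and 8019 genes were called in the 3 comparisons. Few scrambled reads limit the size of the ZBP1 changes, and the interferon genes did not pass the read filter of the main fit.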

Other observations

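Genes for sensing DNA were counted in the same way. Among 8 tested DNA-sensing genes, 5 rose and 2 fell with siRNA-1 and 6 rose and 2 fell with siRNA-2, with medians of 0.89 and 1.09. Over all tested genes 28.6% rose and 24.9% fell with siRNA-1 and 29.9% rose and 26.2% fell with siRNA-2. Those that rose with both siRNAs were CGAS, STING1, IFI16, TREX1 and SAMHD1, AIM2 rose with siRNA-2, and MRE11 and PRKDC fell with both. CGAS and AIM2 had few reads, 8 to 42 and 2 to 32 per library. IFI16 rose by 0.89 and 0.98, TREX1, a DNA exonuclease gene, by 0.90 and 1.20, and STING1, the adaptor of cytosolic DNA sensing, by 0.60 and 0.68. PRKDC, the gene of the catalytic subunit of the DNA-dependent protein kinase, fell by 0.83 and 1.09. TREX1 overlaps SHISA5, IFI16 overlaps PYHIN1 and SAMHD1 overlaps TLDC2.

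Other genes that bind or edit double-stranded RNA went both ways. Among 20 tested, 10 rose and 4 fell with siRNA-1 and 8 rose and 10 fell with siRNA-2, with medians of 0.12 and -0.06, against the same shares over all tested genes. Between the siRNAs none was higher and 10 were lower with siRNA-2, where 16.8% of all tested genes were lower. STAU1 rose by 0.45 and 0.39, whereas HMGB1, whose interval overlaps USPL1, fell by 0.28 and 0.46. DICER1, the gene of the nuclease that makes microRNAs and small interfering RNAs, was at 58.8 ± 1.51 CPM (SD, n = 4) with the scrambled siRNA, 45.9 ± 2.39 CPM with siRNA-1 and 34.0 ± 1.27 CPM with siRNA-2, and fell by 0.36 and 0.79 (edgeR adjusted p = 1.76e-07 and 1.15e-13). DDX1, an RNA helicase gene, passed in opposite directions, at 0.10 with siRNA-1 and -0.11 with siRNA-2.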
